A study of Mus musculus with 15 samples.

Results

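The data are messenger RNA counts of 10 genes that write, erase or read marks on histone H3 in mouse B cells, taken from a table of 54838 genes. They are the core of Polycomb repressive complex 2 (PRC2: Ezh1, Ezh2, Eed and Suz12), the demethylases that remove the PRC2 mark (Kdm6a and Kdm6b), the enhancer methyltransferases Kmt2d and Kmt2c, and the acetyltransferases Crebbp (CBP) and Ep300 (p300). The genes were chosen by name, each was matched to 1 Ensembl ID, and all 10 passed the filter on low counts that left 17144 genes for testing. The libraries came from spleens of 3-month-old wild-type male mice, taken 9 days after injection of sheep red blood cells, an antigen that raises germinal centres (GC). There were 3 libraries each, lettered A, B and C, of sorted naive B cells, of sorted GC B cells, and of sorted naive cells kept for 5 days in a medium made for embryonic stem cells together with anti-CD40 (5 µg/ml, and 80 ng/ml mouse IL-4), CpG oligonucleotide (2 µM) or lipopolysaccharide (LPS, 25 µg/ml). It is not clear from the labels if the CpG and LPS cultures also had IL-4, if GC cells passed through culture, what distinguishes the letters, or if mice were pooled. P-values therefore measure only the spread between these libraries, which may be partly technical.

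PRC2 places methyl groups on lysine 27 of histone H3, a mark of silenced genes, through either of its catalytic subunits, Ezh1 or Ezh2, which need Eed and Suz12 to be active and stable. Ezh2 is the form of dividing cells and is required for germinal centres, and Ezh1 is the form that persists in resting cells. KMT2D and KMT2C methylate lysine 4 of histone H3 at enhancers, and CBP and p300 acetylate the same regions. KMT2D, CREBBP, EP300, EZH2 and KDM6A are among the chromatin genes recurrently mutated in lymphomas of GC origin.

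Before the members are described, the libraries need a short account. Totals ran from 25397624 to 36272197 counts. The summed level of 8 B cell identity genes was 12650 to 14820 CPM (counts per 1000000 counts of the TMM-adjusted library size) in naive, 9011 to 9937 CPM in GC and 5093 to 6370 CPM in activated libraries. All 8 were called lower in each activated group against naive, where 14.0% to 14.3% of all genes were. The summed level of 7 GC markers was 71.4 to 129 CPM in naive, 2388 to 2673 CPM in GC and 485 to 1090 CPM in activated libraries, and that of 18 proliferation genes was 594 to 661, 7115 to 7452 and 3055 to 4372 CPM. Naive library B stood apart: 11523 genes had a count in it, against 13920 and 18866 in naive libraries A and C, and its 7 erythroid markers summed to 306 CPM, against 29.2 and 3.30 CPM. T cell markers (9 genes) summed to 58.0 to 77.6 CPM in naive, 161 to 174 CPM in GC and 31.2 to 45.1 CPM in activated libraries, and myeloid markers (9 genes) to 10.4 to 48.0 CPM over all libraries. The part of these marker levels in the members' results was not tested. Cd3e, a defining T cell gene, had no count in any of the 6 naive and GC libraries. It was not typical of its list: 2 of the 9 T cell markers had no count in naive libraries and 2 had none in GC libraries. Of the 7 T cell markers tested, 1 was called higher in GC than in naive cells and 0 lower. In the fit of all 15 libraries, which had no term for the letter, no gene passed the test between stimuli. The 9 activated libraries were also fitted with letter and stimulus terms. That fit called 27, 44 and 45 of 15727 genes for CpG against CD40, LPS against CD40 and LPS against CpG. With the same terms, 31.1% of genes differed between letters A and B, 23.4% between A and C and 34.8% between B and C.

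In GENCODE M21 on GRCm38 all 10 are protein-coding genes, and counts are over their exons. On the minus strand lie Ezh1 (ENSMUSG00000006920) at chr11:101191115-101226463, Ezh2 (ENSMUSG00000029687) at chr6:47530139-47595341, Eed (ENSMUSG00000030619) at chr7:89954654-89980983. Also on the minus strand lie Kmt2d (ENSMUSG00000048154) at chr15:98831669-98871204, Kmt2c (ENSMUSG00000038056) at chr5:25271798-25498783, Crebbp (ENSMUSG00000022521) at chr16:4081328-4213997 and Kdm6b (ENSMUSG00000018476) at chr11:69398508-69413675. On the plus strand lie Suz12 (ENSMUSG00000017548) at chr11:79993106-80034123, Ep300 (ENSMUSG00000055024) at chr15:81585351-81652077 and Kdm6a (ENSMUSG00000037369) at chrX:18162575-18279936. Their longest coding transcripts run from 2067 bases in Eed to 19823 in Kmt2d.

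The promoters of the 4 PRC2 members are shown, picked with their values known. Ezh2 and Suz12 rose in every group compared with naive cells, Eed rose in GC cells, and Ezh1, the paralogue of Ezh2, fell in GC cells. Each is the RefSeq window on GRCm38.p6 from 250 bases before the start of transcription to 20 bases after it, read along the gene's strand. Capitals mark E2F words, the letters TTTCCCGC, TTTCGCGC, TTTGCCGC or TTTGGCGC on either strand, which are typical of genes switched on when cells enter S phase. Ezh2 lies at chr6:47595011-47595280 on the minus strand, Suz12 at chr11:79992856-79993125 on the plus strand, Eed at chr7:89980957-89981226 on the minus strand and Ezh1 at chr11:101226444-101226713 on the minus strand.
Ezh2: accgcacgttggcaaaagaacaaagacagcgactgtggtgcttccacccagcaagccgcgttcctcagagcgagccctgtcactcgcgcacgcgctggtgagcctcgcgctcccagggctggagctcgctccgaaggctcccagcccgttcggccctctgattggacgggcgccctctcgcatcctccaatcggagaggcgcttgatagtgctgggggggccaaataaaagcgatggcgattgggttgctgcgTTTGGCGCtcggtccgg
Suz12: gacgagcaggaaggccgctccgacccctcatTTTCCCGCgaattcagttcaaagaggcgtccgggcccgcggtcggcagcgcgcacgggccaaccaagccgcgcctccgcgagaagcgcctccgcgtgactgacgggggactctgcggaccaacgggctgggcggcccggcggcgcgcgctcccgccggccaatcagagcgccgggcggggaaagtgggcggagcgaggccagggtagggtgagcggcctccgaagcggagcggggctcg
Eed: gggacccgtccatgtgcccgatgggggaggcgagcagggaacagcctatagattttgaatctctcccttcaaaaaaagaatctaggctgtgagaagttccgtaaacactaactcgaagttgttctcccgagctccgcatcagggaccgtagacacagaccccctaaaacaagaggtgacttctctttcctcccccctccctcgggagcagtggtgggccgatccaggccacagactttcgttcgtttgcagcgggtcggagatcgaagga
Ezh1: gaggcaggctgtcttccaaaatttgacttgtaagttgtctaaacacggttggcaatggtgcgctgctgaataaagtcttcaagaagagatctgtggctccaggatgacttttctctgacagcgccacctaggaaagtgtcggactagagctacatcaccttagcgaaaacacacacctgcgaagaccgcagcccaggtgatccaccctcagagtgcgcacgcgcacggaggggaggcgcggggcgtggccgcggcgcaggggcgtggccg

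An E2F word occurred in 664 of 32851 RefSeq promoter windows of this length (2.02%). Among the 9 members with a window, it occurred in Ezh2, where TTTGGCGC began 4 bases after the start, and in Suz12, where TTTCCCGC began at position -219. It was in none of the windows of Ezh1, Eed, Kmt2d, Kmt2c, Crebbp, Ep300 or Kdm6a. CCAAT, the word bound by NF-Y, was present in 35.4% of windows on either strand, at 3 positions in Ezh2 (-90, -64 and -11) and at -61 in Suz12. TTTGAA, the core of the cell cycle homology region found in many G2 and M phase genes, was present in 16.8% of windows, at -197 and -183 in Eed and at -203 in Suz12. These matches describe the letters only, and binding was not measured. The part of these words in the levels of the members was not tested.

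Ezh2, the catalytic subunit of dividing cells, was the member with the largest rise. It stood at 13.3, 17.3 and 28.2 CPM in naive libraries A, B and C, and at 249, 275 and 242 CPM in the GC libraries. In the activated libraries it was 221, 269 and 242 CPM with CD40, 223, 257 and 230 CPM with CpG, and 215, 268 and 230 CPM with LPS. All 12 GC and activated libraries lay far above all 3 naive libraries, and the activated and GC ranges overlapped. Ezh2 was 13.0-fold higher in GC than in naive cells (log2 fold change 3.70, 95% confidence interval 3.20 to 4.21, edgeR adjusted p = 2.74e-08), 12.4-fold higher with CD40, 12.1-fold with CpG and 12.1-fold with LPS (edgeR adjusted p = 5.95e-08, 6.70e-08 and 6.41e-08). Against GC, activated Ezh2 differed by -0.11 to -0.07 on the log2 scale, and the intervals ran from -0.56 to 0.38 over the 3 stimuli.

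Ezh1, the catalytic subunit of resting cells, took the opposite course. Its level was 110, 95.01 and 118 CPM in naive libraries A to C and 25.5, 27.5 and 22.8 CPM in GC libraries. The CD40 libraries held 55.4, 91.5 and 42.3 CPM, the CpG libraries 64.4, 96.5 and 56.6 CPM, and the LPS libraries 56.4, 90.8 and 56.7 CPM, so that in every stimulus the library lettered B was the highest. CpG library B lay inside the naive range, and the other 8 activated libraries lay below it. Ezh1 fell in GC cells (log2 fold change -2.09, SE 0.29, edgeR adjusted p = 5.23e-05). It was lower than naive with CD40 (-0.77, edgeR adjusted p = 0.0428), a call that was lost when CD40 library A or C or naive library A or C was left out (adjusted p from 0.0924 to 0.236). The differences with CpG (-0.57) and LPS (-0.66) did not pass the test (edgeR adjusted p = 0.126 and 0.0771), although the LPS difference was called without LPS library B (-0.87, adjusted p = 0.0477). Activated cells kept more Ezh1 than GC cells, by 2.50-fold with CD40, 2.87-fold with CpG and 2.69-fold with LPS (edgeR adjusted p = 0.00247, 0.000875 and 0.00144).

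The catalytic pair thus changed places in a measure that compares them per length of exon. Ezh2 made up 11.9%, 16.8% and 21.1% of the summed Ezh1 and Ezh2 CPM per kilobase (kb) in naive libraries, 91.6%, 91.8% and 92.2% in GC libraries, and 74.8% to 86.4% in the 9 activated libraries. No 2 of these 3 ranges overlapped. The ratio of Ezh2 to Ezh1 per kb was 58.3-fold higher in GC than in naive cells and 19.2- to 23.4-fold higher in activated cells (exact permutation test over libraries, p = 0.1 each, which is the smallest that 3 against 3 allows, and 0.178 after Benjamini-Hochberg adjustment over 16 ratio tests). The sum of both rose from 17.4 ± 2.42 CPM per kb in naive cells (SD, n = 3) to 41.6 ± 2.83 in GC cells (SD, n = 3) and 45.0 ± 5.45 over the activated libraries (SD, n = 9). With the length of the longest coding transcript in place of the union of exons, the Ezh2 share was 15.4% to 26.5% in naive, 93.6% to 94.1% in GC and 80.0% to 89.6% in activated libraries.

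Suz12, the subunit that holds PRC2 together, rose in every group. It stood at 136, 109 and 134 CPM in naive libraries, 244, 252 and 210 CPM in GC, 206, 200 and 214 CPM with CD40, 210, 190 and 223 CPM with CpG, and 213, 215 and 215 CPM with LPS. No GC or activated library reached down to the naive range. The rise was 1.86-fold in GC (log2 fold change 0.90, SE 0.13, edgeR adjusted p = 6.84e-05) and 1.64- to 1.70-fold in the activated groups (edgeR adjusted p from 0.000344 to 0.000575).

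Eed, the subunit that reads the methyl mark and stimulates the enzyme, rose in GC cells and was not called in activated cells. It stood at 67.8, 48.0 and 75.0 CPM in naive libraries and at 185, 180 and 170 CPM in GC libraries, a 2.80-fold rise (log2 1.49, SE 0.18, edgeR adjusted p = 1.71e-05). The CD40 libraries held 91.4, 81.1 and 60.8 CPM, the CpG libraries 81.7, 71.4 and 70.9 CPM, and the LPS libraries 83.9, 84.9 and 73.9 CPM, which overlapped the naive range. Against naive, the log2 differences were 0.29, 0.23 and 0.35 (edgeR adjusted p = 0.221, 0.341 and 0.145), and their intervals reached 0.67, 0.61 and 0.73. The CD40 difference was called without CD40 library C (0.51, adjusted p = 0.0423). Against GC, Eed was lower by 1.19, 1.25 and 1.14 on the log2 scale with CD40, CpG and LPS (edgeR adjusted p = 0.000159, 0.000108 and 0.000236).

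The proportions of the PRC2 subunits therefore differed between GC and activated cells while Ezh2 and Suz12 were not called between them. The ratio of Eed to Suz12 per kb, which was added after the values were seen and carries no test, was 0.64, 0.57 and 0.72 in naive libraries, 0.98, 0.92 and 1.04 in GC libraries and 0.37 to 0.57 in activated libraries. Every GC library lay above every naive library, and 8 of the 9 activated libraries lay below every naive library, the other being CD40 library A (0.572, against 0.571 in naive library B). The ratio of Ezh2 to Suz12 per kb was 0.07 to 0.16 in naive, 0.76 to 0.85 in GC and 0.75 to 1.00 in activated libraries. Both ratios depend on the length used: with the longest coding transcript the mean Eed to Suz12 ratio was 1.06 in naive and 1.61 in GC libraries and 0.60 to 0.94 over the activated libraries, and that of Ezh2 to Suz12 was 0.24 in naive, 1.71 in GC and 1.59 to 2.12 over the activated libraries, with the same order of groups for Eed to Suz12.

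**Figure D1:**
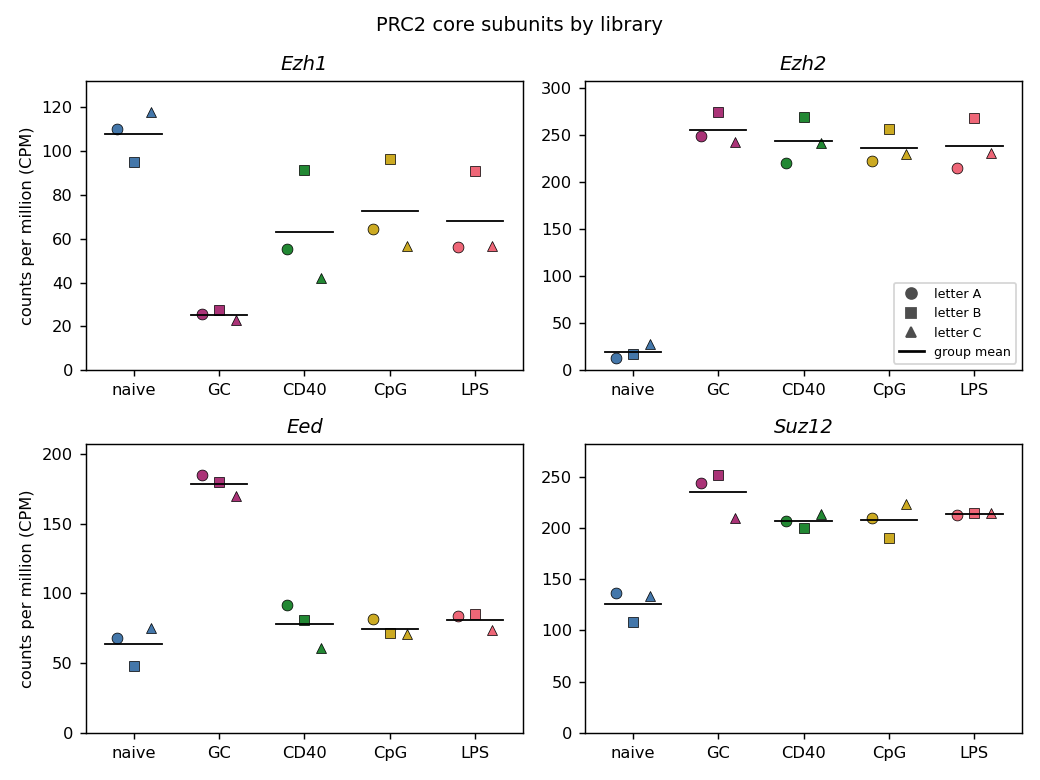
CPM of Ezh1, Ezh2, Eed and Suz12 (y axes, linear, from 0) in each of the 15 libraries, by group (x axis). Symbols give the letter and the line the mean of 3 libraries: Ezh2 and Suz12 are high in GC and in all activated libraries, Eed is high in GC only, at 170 to 185 CPM, and the activated Ezh1 values are highest in letter B.

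**Figure D2:**
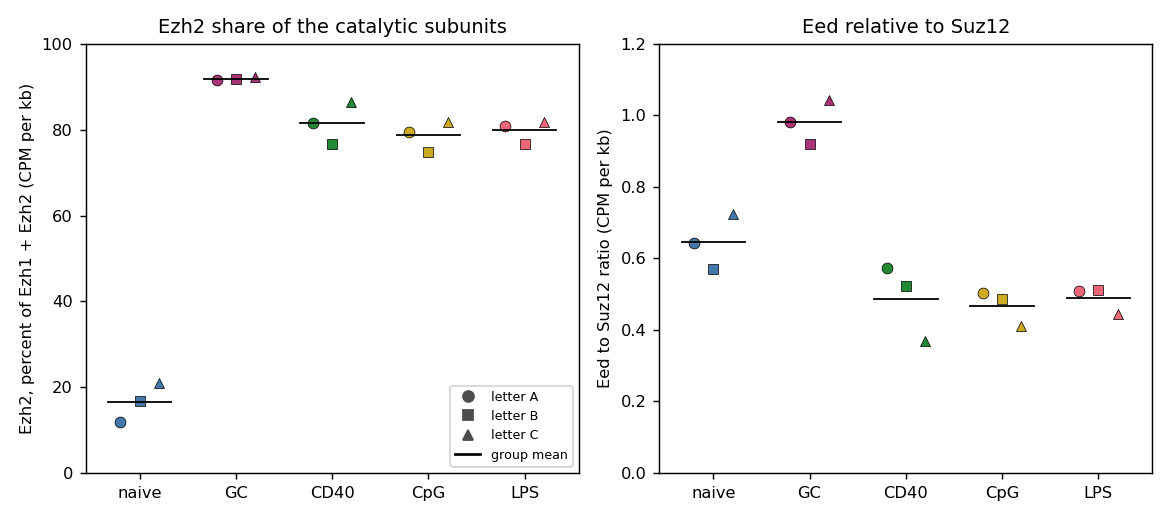
Left, the percent of Ezh1 plus Ezh2 (CPM per kb of exon) that is Ezh2; right, the ratio of Eed to Suz12 (CPM per kb of exon), by group, with 1 symbol per library and a line at the mean of 3. The Ezh2 share is 91.6% or more in GC libraries and 21.1% or less in naive ones, and the Eed to Suz12 ratio is highest in GC.

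In GC against naive cells, 9 of the 10 members passed the test, 3 higher and 6 lower, where 34.5% of the 17144 genes tested passed it, 17.9% higher and 16.5% lower. The median log2 fold change of the members was -0.77, against 0.00 for all genes. Against naive, 6 members passed with CD40, where 34.1% of all genes did (19.8% higher and 14.3% lower). With CpG 5 members passed (33.6% of all genes, 19.7% higher and 14.0% lower), and with LPS 5 (33.7%, 19.5% higher and 14.2% lower). In each of the 3 the 2 members that rose were Ezh2 and Suz12. The median member difference was -0.47, -0.39 and -0.48, against 0.17, 0.18 and 0.18 for all genes, so the activated comparisons carry a small upward shift of all genes. The 3 activated comparisons and the GC comparison share the naive libraries.

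Kdm6b (JMJD3), a demethylase of the PRC2 mark that is induced by inflammatory signals, had the largest fall. It stood at 114, 210 and 76.4 CPM in naive libraries A, B and C, 17.5, 17.9 and 20.4 CPM in GC libraries, 46.7, 56.1 and 44.6 CPM with CD40, 60.7, 73.5 and 36.7 CPM with CpG, and 51.4, 59.8 and 36.1 CPM with LPS. The 3 groups of values did not overlap: naive was highest, activated between and GC lowest. Kdm6b fell 7.16-fold in GC cells (log2 -2.84, SE 0.34, edgeR adjusted p = 1.65e-05) and fell with CD40, CpG and LPS by 1.44, 1.23 and 1.44 on the log2 scale (edgeR adjusted p = 0.00341, 0.00917 and 0.00333). The CpG call was lost without CpG library C (adjusted p = 0.065). Activated cells kept 2.64- to 3.06-fold more Kdm6b than GC cells (edgeR adjusted p from 0.00183 to 0.00492).

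Kdm6a (UTX), the X-linked demethylase of the same mark and a partner of KMT2D and KMT2C, was not called in any group against naive. Naive library B held 13.6 CPM, while naive libraries A and C held 73.3 and 54.0 CPM. GC libraries held 42.1, 43.1 and 45.6 CPM, CD40 libraries 36.4, 28.6 and 38.3 CPM, CpG libraries 40.3, 29.6 and 37.9 CPM, and LPS libraries 36.8, 29.0 and 39.6 CPM. All 12 lay between naive library B and the other naive libraries. With all libraries the log2 differences from naive were -0.11 in GC and -0.45, -0.39 and -0.42 in activated cells (edgeR adjusted p = 0.878, 0.416, 0.489 and 0.449). Without naive library B they were -0.55, -0.88, -0.82 and -0.86, and all 4 passed the test (edgeR adjusted p = 0.0365, 0.00215, 0.00365 and 0.00272). The ratio of Kdm6a to Kdm6b per kb was 0.54, 0.05 and 0.59 in naive libraries, 1.85 to 2.00 in GC libraries and 0.33 to 0.91 in activated libraries. It was 7.59-fold higher in GC than in naive cells, with no overlap (exact permutation p = 0.1, adjusted 0.178), and the log2 difference of 2.93 became 1.80 without naive library B.

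Kmt2d, an enhancer methyltransferase, stood at 293, 190 and 341 CPM in naive libraries, 98.9, 91.8 and 155 CPM in GC libraries, 222, 195 and 170 CPM with CD40, 243, 208 and 178 CPM with CpG, and 195, 188 and 186 CPM with LPS. The GC libraries lay below all others, and the activated libraries straddled naive library B. Kmt2d fell 2.38-fold in GC cells (log2 -1.25, SE 0.23, edgeR adjusted p = 0.000631). Its activated differences of -0.49, -0.39 and -0.53 did not pass (edgeR adjusted p = 0.11, 0.201 and 0.0817), but passed as -0.69, -0.60 and -0.74 without naive library B (edgeR adjusted p = 0.0145, 0.033 and 0.0101). Against GC it was 1.64- to 1.82-fold higher in activated cells (edgeR adjusted p = 0.0204, 0.0104 and 0.0282), and all 3 calls were lost without GC library A or B. The CD40 call was also lost without CD40 A or B, the CpG call without CpG A, and the LPS call without any 1 LPS library (adjusted p from 0.0507 to 0.141 over these fits). Calls over all genes also fell without any 1 library of the groups compared. They fell from 4865 to between 3641 and 4145 for CD40 against GC. For CpG they fell from 4958 to between 3674 and 4006, and for LPS from 4809 to between 3613 and 3974.

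Kmt2c, the paralogue of Kmt2d, fell in every group. It stood at 133, 78.9 and 143 CPM in naive libraries, 34.9, 40.9 and 30.9 CPM in GC libraries, and 51.5 to 76.2 CPM, with a median of 59.7 CPM, in activated libraries. No library of another group reached the naive range, and none of the activated libraries reached the GC range. It fell 3.33-fold in GC cells (log2 -1.73, SE 0.21, edgeR adjusted p = 1.67e-05) and by 0.85, 0.91 and 1.09 on the log2 scale with CD40, CpG and LPS (edgeR adjusted p = 0.0051, 0.00344 and 0.000921). It was higher in activated than in GC cells (log2 0.88, 0.83 and 0.64, edgeR adjusted p = 0.00484, 0.0072 and 0.0295), and the LPS call was lost without any 1 of GC A, GC C, LPS A, LPS B or LPS C (adjusted p from 0.0578 to 0.145). The ratio of Kmt2d to Kmt2c per kb was 2.25 to 2.45 in naive libraries and 2.86 to 3.85 in activated libraries, and 2.89, 2.29 and 5.11 in GC libraries.

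Crebbp and Ep300, paralogous acetyltransferases and coactivators, both fell in GC cells. Crebbp was 121, 118 and 125 CPM in naive libraries and 65.5, 60.9 and 79.7 CPM in GC libraries, a 1.76-fold fall (log2 -0.82, SE 0.23, edgeR adjusted p = 0.012) that did not pass without GC library A or B (adjusted p = 0.072 and 0.0849). In activated libraries it was 85.8, 63.7 and 67.5 CPM with CD40, 89.6, 54.7 and 51.7 CPM with CpG and 91.5, 54.7 and 63.6 CPM with LPS, all below the naive range and highest in letter A. It fell by 0.74, 0.89 and 0.79 on the log2 scale (edgeR adjusted p = 0.0208, 0.00777 and 0.0148), and each of these calls was lost without library B or library C of its own stimulus (adjusted p from 0.0517 to 0.0952). Activated and GC Crebbp differed by -0.07 to 0.07 on the log2 scale, with intervals from -0.56 to 0.56.

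Ep300 stood at 152, 102 and 182 CPM in naive libraries and 79.6, 93.9 and 89.4 CPM in GC libraries, a 1.66-fold fall (log2 -0.73, SE 0.17, edgeR adjusted p = 0.00379). That call was lost when only the naive and GC libraries were fitted (adjusted p = 0.0659). Its activated values were 110, 116 and 112 CPM with CD40, 134, 131 and 128 CPM with CpG, and 112, 117 and 124 CPM with LPS, all above the GC range. The differences from naive of -0.37, -0.15 and -0.30 did not pass (edgeR adjusted p = 0.108, 0.535 and 0.184). Without naive library B they were -0.56, -0.35 and -0.50, and all passed (edgeR adjusted p = 0.00205, 0.0379 and 0.00468). Against GC, Ep300 was called higher with CpG (1.49-fold, edgeR adjusted p = 0.0184), a call lost without GC library A or C or CpG library A or B (adjusted p from 0.0577 to 0.0954). The ratio of Crebbp to Ep300 per kb overlapped between naive and GC libraries, at 0.73 to 1.22 and 0.68 to 0.94. It was 0.58 to 0.83 with CD40 and 0.49 to 0.86 with LPS, which also overlapped the naive range. With CpG it was 0.43 to 0.71, below every naive library (log2 difference -0.83, exact permutation p = 0.1, adjusted 0.178).

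Kmt2d, Kmt2c, Crebbp and Ep300 have long transcripts, and long transcripts moved with these groups and with naive library B. Of 364 tested genes whose longest coding transcript spans at least 9000 bases, a class set after the values were seen, 118 (32.4%) were lower in GC than in naive cells and 40 were higher, with a median log2 fold change of -0.45. Over all tested genes 16.5% were lower and 17.9% higher, with a median of 0.00. With CD40, CpG and LPS the medians of the long genes against naive were -0.16, -0.13 and -0.15, beside 0.17, 0.18 and 0.18 for all genes. Their median level in naive library B lay 0.70 below the mean of naive libraries A and C on the log2 scale, where the median of all tested genes lay 0.35 below. The part of transcript length in the 4 results was not tested.

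**Figure D3:**
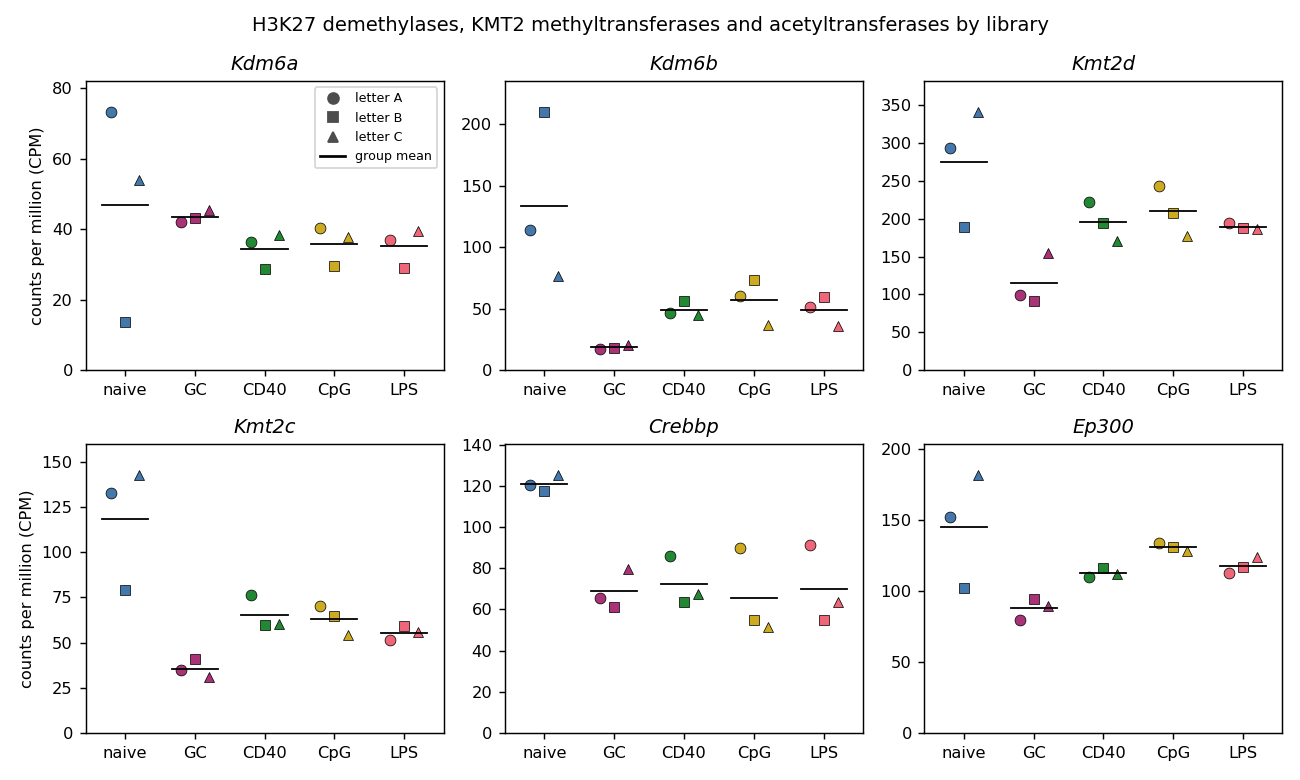
CPM of Kdm6a, Kdm6b, Kmt2d, Kmt2c, Crebbp and Ep300 (y axes, linear, from 0) in the 15 libraries by group (x axis), with symbols for the letter and a line at the mean of 3. Naive library B is lowest of the naive libraries for Kdm6a (13.6 CPM), Kmt2d, Kmt2c, Crebbp and Ep300 and highest for Kdm6b (210 CPM).

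**Figure D4:**
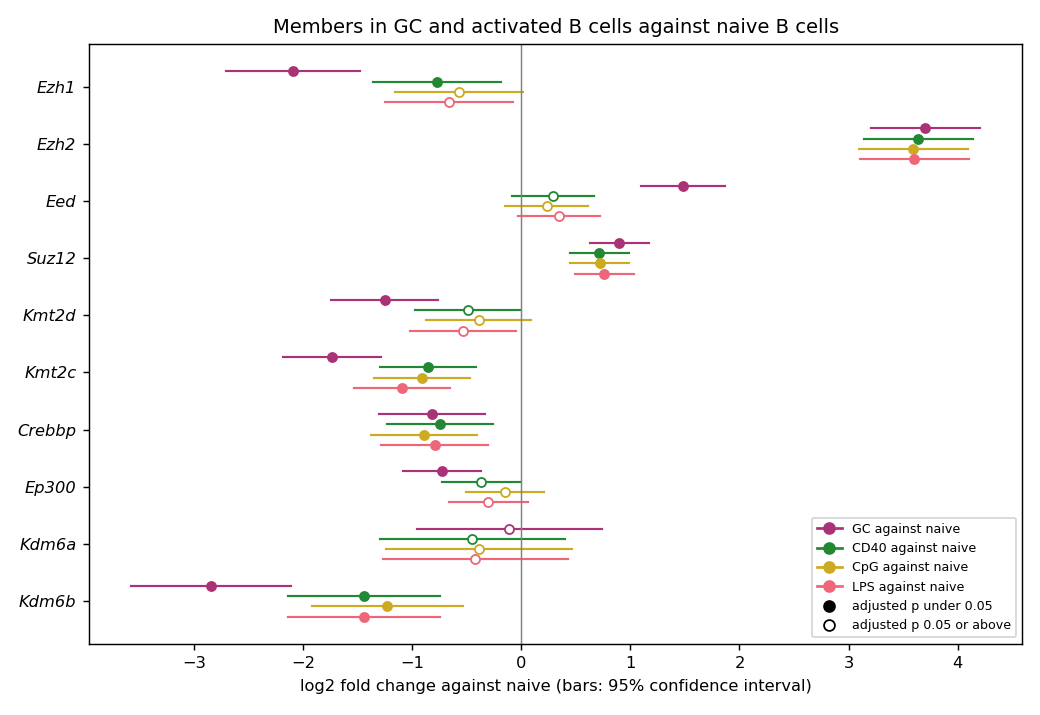
Log2 fold change (x axis) of each member (y axis) in GC, CD40, CpG and LPS libraries against naive libraries, with 95% confidence intervals as bars and filled points where the edgeR adjusted p was under 0.05. Ezh2 lies near 3.6 to 3.7 in all 4 comparisons, and Eed, Kmt2d and Ep300 are called in GC only.

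Against GC cells, 5 members passed with CD40, where 28.4% of all genes did (15.9% higher and 12.4% lower), 6 with CpG (28.9%, 16.4% higher and 12.6% lower) and 5 with LPS (28.1%, 15.8% higher and 12.2% lower). Those called in all 3 comparisons were Ezh1, Kmt2d, Kmt2c and Kdm6b, which were higher in activated cells, and Eed, which was lower. Per kb of exon, Suz12 was the most abundant member in each of the 5 groups, at 25.5 CPM per kb in naive cells, 47.6 in GC cells and 41.8 to 43.2 in activated cells. Ezh2 was the lowest of the 10 in naive cells (2.94 CPM per kb) and the third in GC cells (38.3 CPM per kb), after Suz12 and Eed. The first place depended on the length used: per kb of the longest coding transcript, Eed led in naive cells (30.8 CPM per kb, with Suz12 at 28.8), Ezh2 led in GC cells (91.6, with Eed at 86.2 and Suz12 at 53.8) and Ezh2 led in activated cells (84.9 to 87.5, with Suz12 at 47.3 to 48.9). In GC cells the 3 PRC2 genes stood well above Ep300, the next at 6.14 CPM per kb, whereas in naive cells the order was flat and 8 of 9 neighbouring genes in it had overlapping library ranges. In GC cells 4 of 9 neighbours overlapped, among them Suz12 with Eed, and Ep300, Kmt2d, Kdm6a and Crebbp with one another in turn. Kmt2c was the lowest member in GC cells (1.75 CPM per kb) and in each activated group (2.74 to 3.23 CPM per kb).

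No member passed the test between stimuli (0 of 10 in each of 3 comparisons, background 0%). In edgeR's fit of all 15 libraries, 92, 115 and 71 of 17144 genes had an unadjusted p under 0.05 for CpG against CD40, LPS against CD40 and LPS against CpG, none of them a member, and DESeq2 called 0, 0 and 1 gene. Because libraries of 1 letter moved together, the letter was also fitted as a block in the 9 activated libraries. With the replicate block, 27, 44 and 45 of 15727 genes passed, again none of them a member. Ep300 was the member that came nearest. All 3 CpG libraries, at 128 to 134 CPM, lay above all CD40 libraries, at 110 to 116 CPM, and above all LPS libraries, at 112 to 124 CPM. With the block it was 1.16-fold higher with CpG than with CD40 (interval 0.08 to 0.35 on the log2 scale, unadjusted p = 0.00285, edgeR adjusted p = 0.361). For Ezh2 the interval with the block was -0.16 to 0.07 for CpG against CD40 and -0.15 to 0.08 for LPS against CD40.

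The letter, in contrast, separated several members within the activated libraries. The labels do not say if the 3 activated libraries of a letter share a source. The p-values between letters therefore measure only the spread within letters after the stimulus is fitted. Of the variance of log2 CPM over the 9 libraries, the letter held 95.2% for Kdm6a, 93.8% for Ezh2, 88.8% for Ezh1 and 85.6% for Crebbp. It held 77.1% for Kdm6b, 65.9% for Kmt2d, 64% for Eed, 48% for Suz12 and 21.5% for Kmt2c. For Ep300 the letter held 2.96% and the stimulus 82.3%. This share was not computed over all genes. Ezh1 was 92.9 ± 3.11 CPM in letter B (SD, n = 3), 58.7 ± 4.93 in A (SD, n = 3) and 51.9 ± 8.30 in C (SD, n = 3), and passed the test for B against A and for B against C (1.58- and 1.80-fold, edgeR adjusted p = 8.80e-07 and 1.60e-08). Crebbp was 1.55-fold higher in A than in B and 1.47-fold higher in A than in C (edgeR adjusted p = 2.33e-06 and 1.99e-05). Kdm6a was lowest in B, at 28.6 to 29.6 CPM, against 36.4 to 40.3 CPM in A and C (edgeR adjusted p = 0.00433 and 0.00184). Kdm6b was lowest in C, at 36.1 to 44.6 CPM, against 46.7 to 73.5 CPM in A and B (edgeR adjusted p = 0.00404 and 1.36e-05), and the call against A was lost without CpG library C (adjusted p = 0.0704). In each of the 3 letter comparisons 4 members passed, beside the 31.1%, 23.4% and 34.8% of all genes given above. Marker sums also moved with the letter. Plasma cell markers (7 genes) summed to 3462 to 5059 CPM in C, 2000 to 2133 in A and 1243 to 1329 in B, and naive B cell markers (6 genes) to 1379 to 1443 CPM in A, 587 to 648 in B and 500.4 to 537 in C. GC markers (7 genes) summed to 998 to 1090 CPM in A and 485 to 698 in B and C. Proliferation genes (18) were lowest in B, at 3055 to 3339 CPM, against 3684 to 4189 in A and 4117 to 4372 in C, while Ezh2 was highest in B. The part of these markers in the letter differences was not tested.

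Accessory subunits of PRC2 differed between GC and activated cells. Of 10 such genes, 4 rose and 4 fell in GC against naive cells (median log2 0.54), and 5 rose and 2 fell with CD40, with CpG and with LPS (medians 0.64, 0.65 and 0.68). Among all genes tested, 17.9% rose and 16.5% fell in GC, and 19.5% to 19.8% rose and 14.0% to 14.3% fell with the stimuli. Phf19 and Mtf2, Polycomb-like proteins that help PRC2 bind chromatin in the PRC2.1 form, were the largest rises in GC cells. Phf19 stood at 12.2 to 15.7 CPM in naive, 199 to 249 CPM in GC and 25.8 to 36.2 CPM in activated libraries (log2 3.94 in GC and 1.05 with CD40, edgeR adjusted p = 2.12e-09 and 0.000204), and was lower in activated than in GC cells by 2.84 to 2.97 on the log2 scale. Mtf2 stood at 43.1 to 61.2 CPM in naive, 316 to 346 CPM in GC and 63.0 to 109 CPM in activated libraries. Aebp2, a subunit of the PRC2.2 form, was high in activated cells instead: 45.8 to 80.8 CPM in naive, 68.5 to 77.0 CPM in GC and 271 to 324 CPM in activated libraries. It rose with CD40 (log2 2.19, edgeR adjusted p = 4.68e-07), was not called in GC (0.14, edgeR adjusted p = 0.564), and was higher in activated than in GC cells by 2.05 to 2.06 on the log2 scale. Jarid2, the other PRC2.2 subunit, named here after its values were seen, fell in GC cells (-1.36, edgeR adjusted p = 7.51e-05) and was not called with CD40 (-0.40, edgeR adjusted p = 0.12). Phf1, the third Polycomb-like gene, fell from 246 to 338 CPM in naive to 32.2 to 35.7 CPM in GC and 16.96 to 34.4 CPM in activated libraries, and Lcor, whose locus also encodes a PRC2 accessory subunit, fell in GC and with CD40 (log2 -1.77 and -1.93) from 5.30 to 10.1 CPM in naive libraries.

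Of 25 genes of PRC1, the complex that binds the PRC2 mark and ubiquitinates histone H2A, and of the deubiquitinase PR-DUB, 5 rose and 6 fell in GC cells (median log2 0.03), and 7 rose and 5 fell with CD40. The shares of all tested genes were 17.9% higher and 16.5% lower in GC, and 19.8% higher and 14.3% lower with CD40. Cbx2 and Cbx6, reader subunits, rose in both (log2 4.37 and 2.42 in GC, 4.26 and 2.54 with CD40). Bmi1, a core subunit, fell from 76.3 to 120 CPM in naive to 10.5 to 19.5 CPM in GC libraries (log2 -2.73, edgeR adjusted p = 5.57e-07), Phc3 fell in GC by 1.41 on the log2 scale, and Cbx7 and Cbx8 fell with CD40 by 1.86 and 1.67.

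Of 15 tested genes of the KMT2 complexes, 6 rose and 3 fell in GC cells, and 4 rose and 4 fell with CD40 (medians 0.25 and 0.07). Over all genes, 17.9% rose and 16.5% fell in GC, and 19.8% rose and 14.3% fell with CD40. The shared core subunit Dpy30 rose (log2 1.80 in GC, 0.67 with CD40), Psip1, a chromatin-tethering partner of the KMT2A complex, rose in GC by 2.89, and Paxip1, a partner of KMT2C and KMT2D, rose with CD40 by 1.04. Setd1b, a methyltransferase for lysine 4, fell from 60.7 to 91.0 CPM in naive to 6.88 to 8.15 CPM in GC libraries (log2 -3.37, edgeR adjusted p = 9.62e-08) and by 0.94 with CD40, Kmt2b fell in GC by 0.71, and Kmt2a fell with CD40 by 0.90. Among 6 demethylases of lysine 4, Kdm5b was the gene called in GC, at 42.4 to 73.0 CPM in naive, 2.46 to 3.03 CPM in GC and 35.5 to 67.4 CPM in activated libraries (GC log2 -4.28, edgeR adjusted p = 2.68e-07), and none was called with CD40.

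Of 11 other acetyltransferases and partners, 1 rose and 3 fell in GC cells, and 2 rose and 5 fell with CD40 (medians -0.17 and -0.40). For this list and the next, the shares of all tested genes were 17.9% higher and 16.5% lower in GC. With CD40 they were 19.8% higher and 14.3% lower. Cited2, which binds CBP and p300, rose in both (log2 1.44 and 1.49), as did Ncoa3 with CD40 (0.68), while Kat6b and Kat6a fell in GC (-1.98 and -1.01) and Kat6a and Ncoa1 fell with CD40 (-1.31 and -1.04). Of 18 deacetylases and corepressors, 8 rose and 4 fell in GC cells, led by Hdac8 (log2 1.98) and Hdac1 (0.91) upward and Hdac5 (-1.80) and Hdac10 (-1.13) downward. With CD40, 3 rose, with Tbl1x (0.75) and Hdac4 (0.59) first, and 4 fell, with Hdac10 (-2.54) and Hdac9 (-2.32) first.

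Genes known as targets of these regulators in B cells did not follow 1 direction. Of 15, 3 rose and 9 fell in GC cells (median log2 -1.05), and 5 rose and 6 fell with CD40 (median 0.06). Over all genes, 17.9% rose and 16.5% fell in GC, and 19.8% rose and 14.3% fell with CD40. Cdkn2a, the INK4A and ARF locus that PRC2 silences, had no count in naive libraries, 5.16, 1.91 and 2.37 CPM in GC libraries, and 2.51 to 5.54 CPM in activated letter A but 17.9 to 23.4 CPM in activated letters B and C. Against a floor of 3 counts over the naive group it was at least 99.3-fold higher in GC and at least 435-fold higher with CD40. Cdkn2b, also with no naive count, was at least 7.41-fold higher in GC, where GC library B held 0 counts, and at least 84.3-fold higher with CD40. Cdkn1a, a cell cycle inhibitor reported as an EZH2 target in GC B cells and named here after its values were seen, stood at 0 to 1.81 CPM in naive, 1.21 to 3.27 CPM in GC and 109 to 207 CPM in activated libraries. The largest falls were of Socs3 (log2 -6.04 in GC), Hhex (-5.14 in GC, -4.16 with CD40) and Sgk1 (-5.73 with CD40). Irf4, a plasma cell and activation factor also named after its values were seen, stood at 174 to 210 CPM in naive, 23.4 to 34.0 CPM in GC and 295 to 447 CPM in activated libraries.

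The genes whose log2 CPM ran most like those of Ezh2 over the 15 libraries were Dlgap5 (Pearson r = 0.993), Pimreg (0.992), Bag2 (0.992), Neil3 (0.990) and Kif2c (0.990). For Ezh1 they were Pttg1ip (0.978), Gimap5, Gm14834 and Rnf130 (0.971), and for Kdm6b they were Junb (0.979), Hps1, Ffar2, Smurf1 and Ddit3 (0.957). Libraries of a group share their cell state, so these values describe likeness over 5 groups and carry no p. All 18 proliferation genes rose in GC cells (17.9% of all genes did) and 17 rose with CD40 (19.8%), while 13 fell in CD40 against GC (12.4%). Between those groups Ezh2 and Suz12 were not called. The part of cell division in the levels of the members was not tested. In libraries of bulk cells, fewer cells that express a gene and less RNA per cell cannot be told apart. Antisense or overlapping transcripts lie on exons of Kdm6b (Kdm6bos, 564 counts over 15 libraries), Eed (E230029C05Rik, 409), Suz12 (Gm26563, 331), Ezh2 (Gm26625, 117) and Kmt2c (Gm42585, 94), and since the strand setting of the counting is not stated, reads of each pair cannot be told apart.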

How the data were processed

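Poly(A) RNA libraries were sequenced by the authors. The submitters' processing notes name STAR 2.7.10a (an aligner), featureCounts 2.0.6 (a read counter), DESeq2 and mm10/GRCm38. The strand setting, the handling of multimapping reads and the annotation release are not given in the sources used here. The deposited values are raw counts per gene. GENCODE M21 named 54723 of 54838 gene IDs, and the other 115 held at most 0.00872% of a library.

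In R 4.3.3, edgeR 4.0.16 (TMM, filterByExpr, robust glmQLFit with 1 mean per group, two-sided glmQLFTest) was fitted to all 15 libraries. Letters were compared in the 9 activated libraries with stimulus as a covariate. P-values were Benjamini-Hochberg adjusted over all genes of a comparison, with a threshold of 0.05. DESeq2 1.42.0, other scalings, filters and blocks, and leaving out each library were the alternatives. The outcome of a check of the test on simulated data is not reported here, and no call rests on it. Deviations of activated libraries of 1 letter correlated at 0.271 to 0.402 over 9 pairs, which pairs the stimuli by letter. The other 21 pairs were also of 1 letter, each with a naive or GC library, and lay between -0.055 and 0.0677. Pairs of different letters were not computed. CPM per kb used the union of a gene's exons in GENCODE M21. At these totals the spread between replicates, not counting error, limits precision, and the floor for genes at 0 covers counting error only.

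The members and gene lists were chosen with earlier results of these data known. Every member was to be named. Of each pathway list, the rule named the 2 called genes with the largest change in each direction in GC and in CD40 against naive, and, for Ezh1, Ezh2 and Kdm6b, the 5 genes with the highest correlation. For Ezh1, 1 of those 5 is not reported here.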

Additional observations from a re-analysis of the deposited data

How the results depend on the processing

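Of 41 member calls against naive or GC cells, 28 held under every alternative run, 13 were lost under at least 1, and no direction reversed. Of 29 pairs of a member and a comparison that were not called there, 15 were called under at least 1 alternative. These comparisons share libraries, so the calls are not independent. With library totals alone, 3 members passed in LPS against GC in place of 5. Leaving out 1 library gave 3 to 8 members in CpG against naive (8 without naive B, 3 without CpG C), 4 to 8 in LPS against naive (8 without naive B) and 3 to 4 in LPS against GC (3 without GC A or any LPS library). Without naive B all 10 members passed in GC against naive and 9 in CD40 against naive. Calls over all genes moved as well when 1 library was left out. They ran from 4580 to 6706 in GC against naive (5911 with all libraries). The range was 4650 to 6586 in CD40 against naive (5849) and 4543 to 6545 in CpG against naive (5768). In LPS against naive it was 4547 to 6621 (5779), and in LPS against GC 3613 to 3974 (4809). With the letter as a replicate block in all 15 libraries, where letters did not pair the groups, 9, 6, 6 and 6 members passed in GC, CD40, CpG and LPS against naive, Ezh1 being added with CpG and LPS (adjusted p = 0.0335 and 0.0176). Fitting only the compared groups called 3005, 3137 and 3349 genes for CD40, CpG and LPS against naive, in place of 5849, 5768 and 5779, and the cause was not tested. In those 2-group fits the calls of Ezh1 (0.114) and Kmt2c (0.0555) with CD40 and of Kdm6b with CpG (0.0786) were lost, by adjusted p, as was the Ezh1 call with no filter (0.0598). DESeq2, and edgeR with no filter, each called 1 gene in LPS against CpG. The ratio of Kdm6a to Kdm6b in CD40, CpG and LPS against naive fell to 0.05, -0.05 and 0.10 on the log2 scale without naive B. Groups of 3 limit the test: a p of 0.1 is the smallest for a ratio.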
